A study of Homo sapiens with 16 samples.

Results

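SUP-T11 is a human line derived from T-cell acute lymphoblastic leukemia, here called T-ALL, and it was chosen by its label, as 1 line of 16. Its total RNA was set beside that of the other 15 T-ALL lines, namely ALL-SIL, CCRF-CEM, DU528, HSB-2, JURKAT, KOPT-K1, LOUCY, MOLT-16, MOLT-4, P12-ICHIKAWA, PEER, PF-382, SKW-3, SUP-T13 and TALL-1. All 16 cultures were seeded alike in RPMI-1640 with serum, received no treatment and were harvested after 24 hours, and each gave 1 Affymetrix U133 Plus 2.0 array. A gene was counted as set apart where SUP-T11 lay at least 2 units of log2(intensity + 16) above or below every other line. Of 19775 genes 114 met this rule, with 61 above and 53 below, and 19661 did not.

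SUP-T11 has no second array, so no value below has a replicate error and no test was run. With 1 line against 15, an exact permutation test cannot give a p below 0.0625. A gap is the distance on the log2(intensity + 16) scale between SUP-T11 and the nearest other line, and a difference is SUP-T11 minus the median of the other 15. Intensities are on the deposited linear scale, with a table median of 42.4, and a gene was called expressed when the median of its 16 values reached 4 times that, 169.5. The other lines are different leukaemias, and their range is a spread between lines, not an error. In a whole culture, fewer cells with a transcript and less of it per cell cannot be told apart.

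T-ALL is a cancer of developing T cells, and its lines keep features of the thymocyte stage at which the original cells stopped. Thymocytes divide under signals from NOTCH1 and the interleukin-7 receptor, transcription factors such as MYB and SOX4 act in their early stages, and the kinase CDK6 with a D-type cyclin carries them through the G1 phase. As thymocytes mature, they lose the CD1 molecules and the recombinase and gain receptors of circulating T cells.

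SUP-T11 carried the T-lineage transcripts CD3D, CD3G and CD7 at levels inside the range of the other lines. CD3D, a chain of the T-cell receptor complex, read 9892 in SUP-T11, against 7095, 12202 and 14179 as the lowest, median and highest of the other 15 lines. CD3G, another chain, read 6984 in SUP-T11 and between 667 and 8568 elsewhere. CD7, an early T-lineage surface protein, read 1309.7 in SUP-T11 and between 208 and 4917 elsewhere. None of these 3 genes separated SUP-T11 from the other lines. CD5, of the same lineage, lay above every other line, with 2421 in SUP-T11 against at most 1082 elsewhere. Technical measures of the SUP-T11 array lay near the others. Its median was 44.2, against 37.6 to 45.0 in the other arrays. For ACTB its 3' control divided by its 5' control was 1.59, against 1.44 to 2.03. For GAPDH this ratio was 1.05, against 0.90 to 0.98, so SUP-T11 lay above the other arrays there, and its GAPDH 3' control read 12793, below the 14247 to 18665 of the others. The part of this in the results was not tested.

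By the number of genes set apart SUP-T11 ranked first of the 16 lines. It had 114, followed by 90 in DU528 and 87 in LOUCY, and the fewest were 6 in CCRF-CEM. The order differed by direction. LOUCY had 70 genes set apart high, more than the 61 of SUP-T11, and DU528 had 54. Low, SUP-T11 came first with 53, followed by 37 in TALL-1 and 36 in DU528. Over all genes, Pearson's r between SUP-T11 and the gene-wise median of the other lines was 0.928, the lowest of the 16, close to 0.930 for DU528 and 0.933 for LOUCY, while CCRF-CEM had the highest at 0.971. This is a description across genes, which are not independent. Of all genes, 13.3% lay at least 1 unit from the median of the other lines in SUP-T11, against 11.9% in LOUCY and 5.41% in CCRF-CEM.

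**Figure D1:**
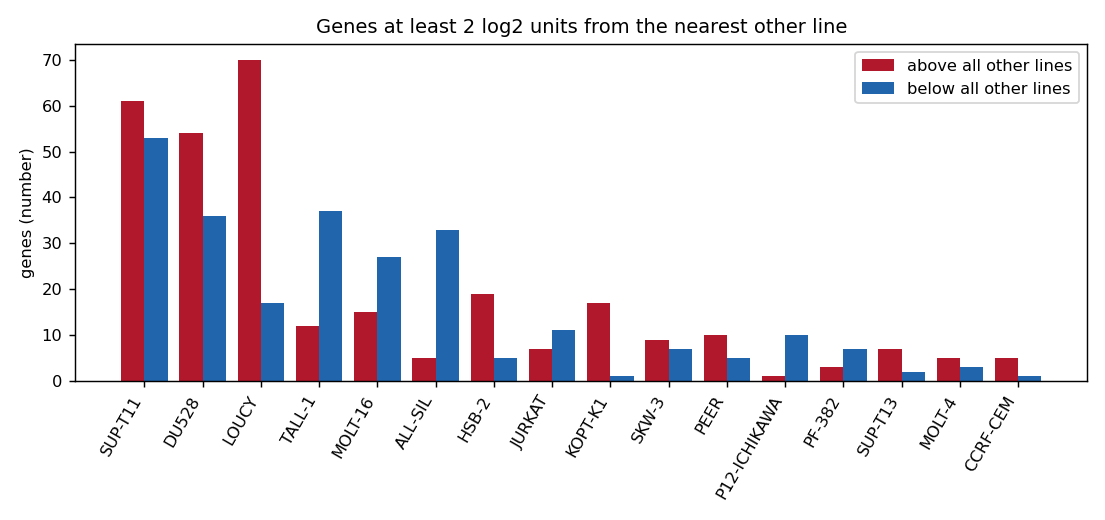
Number of genes (vertical axis) at least 2 log2(intensity + 16) units above (red) or below (blue) every other line, for SUP-T11 at the left and then the other 15 lines by total. SUP-T11 has 61 high and 53 low genes, and LOUCY exceeds it in high genes with 70.

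The genes above every other line made up 0.308% of those measured, and the genes below 0.268%. These shares state the rule's own count, and nothing is read from them. The largest gap was 5.59 units high and 8.02 units low, and the median gap was 2.66 for the 61 high genes and 2.92 for the 53 low ones. A gap of at least 3 was reached by 22 high and 26 low genes, and a gap of at least 4 by 6 high and 16 low genes. In 39 of the 53 low genes SUP-T11 lay under the table median, where the array hardly separates levels. In 30 of the 61 high genes every other line lay under it. In the annotation used, 59 of the high genes and 53 of the low genes are protein coding, and the other 2, MIAT and PEG3-AS1, are non-coding.

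**Figure D2:**
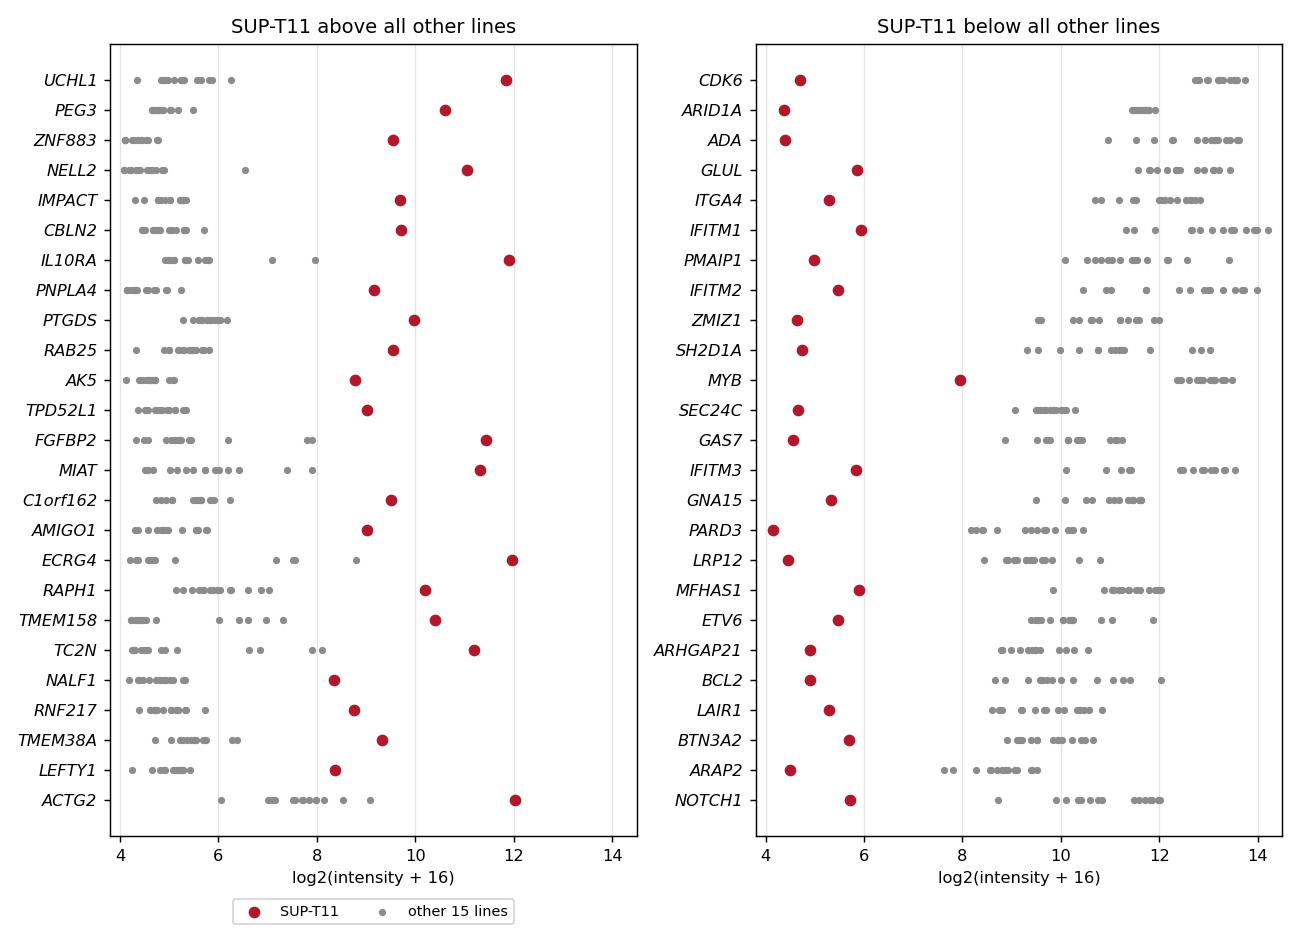
The 25 genes with the largest gap in each direction, high at the left and low at the right, with log2(intensity + 16) on the horizontal axis. The large red point is SUP-T11 and each small grey point is another line. SUP-T11 stands clear of all 15 grey points in each gene by at least the gap of 2, from UCHL1 (3669 against at most 60.5) to CDK6 (10.2 against at least 6779).

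Among the high genes, the first 2 by gap are better known from neurons and from imprinting than from T cells. UCHL1, a deubiquitinating enzyme abundant in neurons, read 3669 in SUP-T11, against 4.32, 21.6 and 60.5 as the lowest, median and highest of the other lines, a gap of 5.59. PEG3, a zinc finger gene expressed from the paternal copy, read 1534 in SUP-T11, against 9.22, 11.7 and 28.6, a gap of 5.12. SUP-T11 was thus far above the table median in both, and all other lines were near or under it. A second probe set gave the same order for each. For UCHL1 it read 141 in SUP-T11 and at most 22.1 elsewhere. For PEG3 it read 1021 in SUP-T11 and at most 17.8 elsewhere.

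At the other end stood CDK6, which read 10.2 in SUP-T11, against 6779, 9443 and 13685 in the other lines, a gap of 8.02. Every other line expressed it and SUP-T11 was near background. All 6 other CDK6 probe sets were lowest in SUP-T11 as well, with SUP-T11 between 1.82 and 21.7. The promoters of UCHL1 and CDK6 are shown because these genes lay furthest from the other lines in each direction. They are RefSeq sequences of build GRCh38.p14 from 250 bases before to 50 after the gene start, read 5′ to 3′ on the gene's strand, with each CG dinucleotide in capitals. UCHL1 lies on the plus strand at chr4:41256678-41256977 and CDK6 on the minus strand at chr7:92836524-92836823. 
UCHL1: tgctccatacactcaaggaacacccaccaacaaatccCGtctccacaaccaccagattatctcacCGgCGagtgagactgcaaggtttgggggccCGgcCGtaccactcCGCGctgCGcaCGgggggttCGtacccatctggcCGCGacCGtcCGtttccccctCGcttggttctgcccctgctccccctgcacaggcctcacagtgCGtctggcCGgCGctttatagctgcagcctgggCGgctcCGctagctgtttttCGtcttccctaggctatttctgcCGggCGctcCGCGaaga
CDK6: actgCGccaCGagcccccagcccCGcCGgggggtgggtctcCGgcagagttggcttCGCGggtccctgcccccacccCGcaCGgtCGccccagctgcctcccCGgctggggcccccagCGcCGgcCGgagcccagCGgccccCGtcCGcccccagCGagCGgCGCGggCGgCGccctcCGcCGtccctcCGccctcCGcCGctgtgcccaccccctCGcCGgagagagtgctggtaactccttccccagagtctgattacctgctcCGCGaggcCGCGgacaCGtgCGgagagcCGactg
The UCHL1 window holds 25 CG and the CDK6 window 37. Over the 51 of 61 high genes with a promoter entry the median was 26, against 27 over the 7075 expressed genes that have one. Over the 15384 genes of the array with an entry it was 22. Of the 53 low genes 39 had an entry, 73.6% of them, so a median over the low genes would not cover enough of them and the comparison is void.

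Several imprinted genes or genes tied to imprinting were high. PEG3-AS1, an antisense RNA at the PEG3 locus, read 258 in SUP-T11 and at most 28.9 elsewhere, and reads of overlapping genes cannot be separated for certain here. IMPACT, imprinted in mouse, read 811 in SUP-T11, against 3.84, 16.4 and 24.6 in the other lines. ZFP57, which protects imprinted methylation in mouse and human, read 199 in SUP-T11 and at most 19 elsewhere. ZFP57 and PEG3-AS1 were picked after their values were seen. In the list of 21 measured imprinted genes, 4 were highest in SUP-T11, which is 19% against 9.53% of all genes, and the median difference was 0.07 against -0.01. The 4 were PEG3, PEG10, SGCE and ZDBF2. PEG3 was a marker chosen for SUP-T11 with earlier results of these data known, and PEG10 and SGCE are neighbours. Nothing is therefore read from this share. PEG10, a gene derived from a retroelement, read 1704 in SUP-T11, against 2.11, 9.24 and 415, and fell just short of the gap of 2. Its neighbour SGCE read 864 in SUP-T11 and between 8.33 and 233 elsewhere. MEST read 2709 in SUP-T11 but 4823 in LOUCY. NDN went the other way, with 31.6 in SUP-T11 against 11.7, 836 and 2546. The imprinted genes therefore did not move as one, since most of the list lay near the other lines.

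Of 25 genes known from neurons 4 were highest in SUP-T11, 16% against the 9.53% of all genes, and only UCHL1 was set apart. The 4 were UCHL1, BEX2, SNAP25 and NEFM. SNAP25 read 120 in SUP-T11 and at most 98.3 elsewhere, and did not reach 4 times the table median in any line. NEFM read 30.5 in SUP-T11 and at most 30.35 elsewhere, levels under the table median that cannot be ordered. UCHL1 had the largest gap of the high genes. Nothing is therefore read from this share. BEX2 read 5392 in SUP-T11, against 2.82, 60.4 and 2139 in the other lines. Of this list 15 genes never reached 4 times the table median in any line. INA, a neurofilament protein, read 4.76 in SUP-T11, against 2.13, 107 and 1113. Outside the list, NELL2, a secreted protein of neural tissue, read 2108 in SUP-T11, against 1, 7.36 and 77.4, a gap of 4.51. CBLN2, a synapse organiser, read 815 in SUP-T11, against 5.70, 12.1 and 35.9. AMIGO1, a neuronal adhesion protein, read 502 in SUP-T11 and at most 38.5 elsewhere. These 3 were picked from the genes set apart, so they add nothing to the list, and none had a second probe set. Their levels in normal T cells or in neurons were not measured here.

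The receptor genes IL10RA, IL21R and BMPR2 were among the 30 highest genes by gap. IL10RA, the ligand-binding chain of the interleukin-10 receptor, read 3811 in SUP-T11, against 14.3, 24.0 and 232 in the other lines. IL21R, the interleukin-21 receptor, read 967 in SUP-T11, against 8.44, 31.8 and 120.3, and both of its other probe sets had a gap over 2. BMPR2, a receptor for bone morphogenetic proteins, read 3094 in SUP-T11, against 42.3, 174.7 and 436. Of the 5 other BMPR2 probe sets 4 had a gap over 2, and the fifth read near background in every line. LEFTY1, a secreted inhibitor of NODAL signalling, read 316 in SUP-T11 and at most 26.8 elsewhere. That none of these overlapped the other lines follows from the rule that picked them.

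TCL1A, an oncogene named for T-cell leukaemia that promotes AKT signalling, read 486 in SUP-T11, against 29.9, 51.7 and 75.7 in the other lines. Its second probe set gave a wider gap of 4.4, with 830.1 in SUP-T11 and at most 24.0 elsewhere. The other 3 measured genes of the family lay inside the range of the other lines. TCL1B read 10.3 in SUP-T11 and at most 14.7 elsewhere. TCL6 read 44.4 in SUP-T11 and between 21.8 and 58.4 elsewhere. MTCP1 read 131 in SUP-T11 and between 99.8 and 204 elsewhere.

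PTGDS, AK5, PNPLA4, RAB25 and TC2N were also among these 30. PTGDS, which makes prostaglandin D2 and is abundant in brain, read 995 in SUP-T11, against 22.97, 38.3 and 56.4. Its other probe sets had larger gaps, 6.59 and 7, since they read 4971 and 4412 in SUP-T11 and at most 35.9 and 18.7 elsewhere. AK5, an adenylate kinase of brain, read 421 in SUP-T11 and at most 18.3 elsewhere, with a second probe set at 1830.0 against at most 17.3. PNPLA4, a lipase, read 559.7 in SUP-T11 and at most 21.7 elsewhere. RAB25, an epithelial member of the RAB family of vesicle proteins, read 729 in SUP-T11 and at most 40.3 elsewhere. TC2N, a C2 domain protein, read 2308 in SUP-T11, against 3.07, 7.84 and 259.6. These 5 genes lay clear of the other 15 lines by the rule that picked them.

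FGFBP2, known from cytotoxic lymphocytes, read 2738 in SUP-T11, against 3.95, 20.2 and 222.6. KLRF1, an NK cell receptor, was highest in SUP-T11 with 627, against 11.4, 18.6 and 300.2, but was not set apart. NKG7, a cytotoxic granule protein, was lowest in SUP-T11 with 8.96, against 11.7, 302.5 and 4915, though the next line also lay under the table median. The list of 11 NK and cytotoxic genes had a median difference of -0.14, so its members did not lie to one side. ECRG4, a secreted peptide precursor, read 3976 in SUP-T11, against 2.54, 9.5 and 429. The long non-coding RNA MIAT read 2528 in SUP-T11, against 6.78, 36.9 and 224, and all 3 of its other probe sets were highest in SUP-T11.

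The other genes among the first 30 by gap were also measured. ZNF883 read 728 in SUP-T11 and at most 11.3 elsewhere. TPD52L1, RAPH1, OTUD7A, NALF1, RNF217, TTYH2 and B3GALT2 each had a second probe set with SUP-T11 outermost. C1orf162, TMEM158 and TMEM38A had none. The 31 high genes beyond the first 30 had gaps of 2.06 to 2.66. In them SUP-T11 read between 109 and 2283, with a median of 294, while the highest other line read between 13.9 and 471.

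Low genes in SUP-T11 included regulators that most T-ALL lines express strongly. ARID1A, the DNA-binding subunit of a SWI/SNF chromatin remodelling complex, read 4.83 in SUP-T11, against 2772, 3210.2 and 3842 in the other lines, a gap of 7.06. No other line came near SUP-T11, and the 15 others lay within a narrow band. Of its 3 other probe sets 2 had gaps of 5.11 and 6.38, and the third was low in all lines, with 63.1 in SUP-T11 and between 61.4 and 104 elsewhere. A list of 19 SWI/SNF subunits was drawn up after these values were seen. Its other members were not set apart, and the median difference of the list was -0.25 against -0.01 for all genes. ARID1B, the alternative subunit, read 1481 in SUP-T11, against 588, 1091 and 1589. ARID2 read 391 in SUP-T11, against 450.5, 799 and 1144, the lowest of the 16.

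ADA, adenosine deaminase, is abundant in thymocytes, and its loss causes severe combined immunodeficiency. It read 4.91 in SUP-T11, against 1984, 8491 and 12502, a gap of 6.58. A second probe set read 15.1 in SUP-T11 and between 961 and 13019 elsewhere. GLUL, glutamine synthetase, read 42.0 in SUP-T11, against 3011, 5290.1 and 11040.2. MT2A, a metal-binding metallothionein, read 446 in SUP-T11, against 2467, 4315 and 10258. It was named after its values were seen, and related metallothioneins can share its probes. These 3 genes were picked because SUP-T11 lay apart from all others in them.

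Transcription factors of the T lineage split in both directions. MYB, a factor needed for thymocyte development and a T-ALL oncogene, read 230.2 in SUP-T11, against 5269.9, 7552 and 11422 in the other lines. Its second probe set was also lowest in SUP-T11, with a gap of 1.70. ETV6, an ETS family repressor, read 28.6 in SUP-T11, against 658, 1044 and 3712, and all 4 of its other probe sets were lowest in SUP-T11. SOX4, a factor of early lymphoid stages, read 503 in SUP-T11, against 3307, 7683 and 10744. These 3 were the only set-apart genes of a list of 22 T-lineage factors. In that list 7 genes were lowest in SUP-T11, 31.8% against 11.5% of all genes and 16.4% of expressed genes. Another 5 were highest, 22.7% against 9.53% of all genes.

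TOX, which directs CD4 lineage development, was lowest in SUP-T11 with 662, against 1282, 4005 and 5673. Among the highest was FOXO1, a factor of quiescent naive T cells, with 1312 in SUP-T11, against 5.88, 43.4 and 654. ID3, an inhibitor of E proteins, read 12964 in SUP-T11, against 81.7, 873 and 3521, its gap falling short of 2. BACH2, a repressor that restrains effector genes, read 2106 in SUP-T11, against 3.52, 366 and 1716. RUNX2 was high in SUP-T11 with 1501 and exceeded only in SUP-T13 with 1679. Thus the list held large differences of both signs around a median of -0.58.

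Of the G1 phase genes only CDK6 was set apart. Its partner CCND3 was lowest in SUP-T11, with 1166, against 2639, 5539 and 8435. CCND2, another D-type cyclin, read 1611 in SUP-T11, against 5.19, 40.9 and 6607, and 3 lines lay above it. CDK4, the kinase most like CDK6, read 2513 in SUP-T11 against 2412, 3715 and 5495. CDKN2A, whose products restrain CDK4 and CDK6 and MDM2, was highest in SUP-T11, with 3675, against 8.30, 29.4 and 3198, the last of these in LOUCY. RB1, the target of CDK4 and CDK6, read 324 in SUP-T11, against 2.67, 3848 and 6298, and 2 lines lay below it. The list of 20 genes had a median difference of -0.42, with 3 highest and 3 lowest in SUP-T11, 15% each, against 9.53% and 11.5% of all genes.

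Of 16 proliferation genes 9 were lowest in SUP-T11, 56.2% against 11.5% of all genes and 16.4% of expressed genes. The median difference was -0.39 against -0.01 for all genes. MCM5, a subunit of the replicative helicase, read 1894 in SUP-T11, against 3569, 4890.4 and 5732. AURKB, a mitotic kinase, read 1356 in SUP-T11, against 1903, 3316 and 4174. The 9 differed by between -0.38 for PCNA and -1.36 for MCM5. AURKA, at 0.28, TOP2A, at 0.11, and CCNB2, at 0.09, lay above the median of the other lines. MKI67 lay in the middle, with 2344 in SUP-T11 against 1288, 2428 and 4284. Housekeeping genes on the array had a median difference of -0.10. Of these 10 genes 4 were lowest in SUP-T11, 40% against 11.5% of all genes and 16.4% of expressed genes. TFRC and GAPDH were among them and read 5599 and 12258 in SUP-T11 against at least 9313 and 13566 elsewhere.

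Of the BCL2 family, which sets the threshold for apoptosis, 2 opposed members were set apart low. PMAIP1, the pro-apoptotic protein NOXA, read 15.7 in SUP-T11, against 1062, 2785 and 10838, and its second probe set had a gap of 5.52. BCL2, which protects cells, read 13.9 in SUP-T11, against 390.1, 889 and 4162. The 3 other BCL2 probe sets had gaps under 1, 1 of them with SUP-T11 inside the range of the other lines. BCL2L1, another protective member, was lowest with 262, against 378, 1088 and 2421. MCL1 read 3539 in SUP-T11, second to SUP-T13 at 3681. Of 17 measured members 4 were lowest in SUP-T11, 23.5% against 11.5% of all genes and 16.4% of expressed genes. None was highest, against 9.53% of all genes, and the median difference was -0.19.

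NOTCH1, the receptor most often mutated in T-ALL, read 36.3 in SUP-T11, against 408, 1807 and 4116 in the other lines. Its second probe set was near background in all lines, with 11.8 in SUP-T11 and between 11.6 and 30.8 elsewhere. HES1, a direct NOTCH target, was lowest in SUP-T11 with 15.99, against 38.1, 699 and 3327. The next line also lay under the table median, where levels cannot be ordered. DTX1, also a target, read 22.5 in SUP-T11, against 18.2, 297 and 4489.8, and 4 lines lay below it. NOTCH3 read 20.9 in SUP-T11, against 7.30, 357 and 3955. DLL3, a ligand of the family, was highest with 242, against 9.60, 18.8 and 228. Of 16 genes 6 lay at least 1 unit below the median of the other lines, 37.5% against 6.8% of all genes, and the median difference of the list was -0.09.

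Cytokine receptor and STAT genes lay mostly low. Of 16 genes 10 were at least 1 unit below the median of the other lines, 62.5% against 6.8% of all genes, and none was set apart. In SUP-T11 5 were lowest, 31.2% against 11.5% of all genes and 16.4% of expressed genes. In 2 of the 5 the next line also lay under the table median. IL2RB, a chain of the interleukin-2 and interleukin-15 receptors, read 7.46 in SUP-T11, against 13.8, 485 and 3318. STAT5A read 31.6 in SUP-T11, against 41.7, 651 and 5431. These genes were near background in SUP-T11 and varied widely among the other lines. STAT5B read 371 in SUP-T11, against 615, 1505 and 3310.4. CISH, a target of STAT5, read 15.9 in SUP-T11, against 84.7, 325 and 5856. SOCS2, also a target, read 87.3 in SUP-T11, against 55.7, 386 and 8378. PIM1 and SOCS3, also targets, differed by -0.08 and 0.05. PIM1 read 130.5 in SUP-T11, against 46.8, 138 and 5131. SOCS3 read 119 in SUP-T11 and at most 160.9 elsewhere. In both genes SUP-T11 and the median of the other lines lay under the level used to call a gene expressed. Their small differences therefore do not show that a target was kept up in SUP-T11. JAK1 read 3362 in SUP-T11, against 186, 2005 and 4079.

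Interferon-induced genes included the IFITM family, membrane proteins that block virus entry. IFITM1 read 45.1 in SUP-T11, against 2532, 10044 and 18923, a gap of 5.38. IFITM2 read 28.2 in SUP-T11, against 1376, 7687 and 16139. IFITM3 read 41.5 in SUP-T11, against 1077, 6548 and 11783. The 3 genes are near-identical neighbours on chromosome 11, their probe sets can share transcripts, and their values are not independent. The promoters of IFITM1 and IFITM3 are shown because these neighbours were low together. They are RefSeq sequences of GRCh38.p14 over the same window, IFITM1 on the plus strand at chr11:313790-314089 and IFITM3 on the minus strand at chr11:320811-321110. Capitals mark GAAA, any 2 bases and GAAA again, a pattern of interferon-stimulated elements, searched on both strands.
IFITM1: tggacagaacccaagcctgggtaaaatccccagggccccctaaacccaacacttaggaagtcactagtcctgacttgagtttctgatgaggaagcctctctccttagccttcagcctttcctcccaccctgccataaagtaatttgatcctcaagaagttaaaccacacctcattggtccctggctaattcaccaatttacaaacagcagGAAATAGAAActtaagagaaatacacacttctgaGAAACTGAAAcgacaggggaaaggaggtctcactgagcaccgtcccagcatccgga
IFITM3: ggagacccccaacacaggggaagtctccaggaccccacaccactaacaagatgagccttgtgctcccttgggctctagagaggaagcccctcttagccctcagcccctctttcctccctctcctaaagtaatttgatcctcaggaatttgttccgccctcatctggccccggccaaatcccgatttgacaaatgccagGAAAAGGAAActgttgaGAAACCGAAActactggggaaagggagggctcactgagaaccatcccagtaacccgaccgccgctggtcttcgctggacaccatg
Each window held 2 matches. The pattern occurs in 3.65% of the 27305 promoters in the table, in 2.88% of those of expressed genes, and, beside IFITM1 and IFITM3, in GLUL among low genes and ZFP57 among high ones. A match is only a run of letters, and no use of it was measured.

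A wider list of 33 interferon-induced genes was drawn up after the IFITM values were seen. In SUP-T11 15 were lowest, 45.5% against 11.5% of all genes and 16.4% of expressed genes. At least 1 unit below the median of the other lines lay 20, 60.6% against 6.8% of all genes. In 7 of the 15 the next line also lay at or under the table median, where levels cannot be ordered, XAF1 and TRIM22 among them. In the other 8 it lay above, 24.2% of the list against 7.18% of all genes. IFITM1, IFITM2 and IFITM3, which prompted the list, are among the 15 and among these 8. Nothing is therefore read from these shares. TRIM22, a restriction factor, read 9.52 in SUP-T11, against 23.2, 1137 and 3948. XAF1, a pro-apoptotic protein, read 16.4 in SUP-T11, against 25.9, 859 and 3225. PARP14 read 25.9 in SUP-T11, against 143, 756 and 1674, with a gap just under 2. The list was not uniform. ISG15, a ubiquitin-like modifier, was highest in SUP-T11 with 5906, against 834, 2309 and 5822, and GBP2, a guanylate-binding protein, with 592, against 6.63, 22.3 and 439.7.

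Genes of antigen presentation by HLA class I had a median difference of -1.52, and 9 of 14 lay at least 1 unit low, 64.3% against 6.8% of all genes. NLRC5, the transactivator of class I genes, read 8.42 in SUP-T11, against 13.4, 247 and 1358. PSMB8, a subunit of the immunoproteasome, read 787 in SUP-T11, against 1559, 2877 and 4807. HLA-B read 967 in SUP-T11, against 846, 3409 and 13202, with 1 line below it, and B2M was not low, with 18158 against 11666, 16064 and 19487. HLA class I genes are near-identical, so their probe sets share signal. BTN3A2, a butyrophilin recognised by gamma delta T cells, was set apart with 35.6 in SUP-T11, against 463, 906 and 1596.

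ITGA4, SH2D1A, GNA15, GNAQ, LAIR1, ORAI2 and LST1 were among the 30 lowest genes by gap. ITGA4, the integrin chain that binds VCAM1, read 22.96 in SUP-T11, against 1639, 4439 and 7278, and its 3 other probe sets had gaps of 3.19 to 4.02. SH2D1A, the adaptor SAP mutated in X-linked lymphoproliferative disease, read 10.6 in SUP-T11, against 623, 2192 and 8311, and its 3 other probe sets had gaps over 3. GNA15, a G protein alpha chain of blood cells, read 24.3 in SUP-T11, against 709, 2617 and 3138. ITGA4, SH2D1A and GNA15 all lay under the table median in SUP-T11, and every other line read far above it. GNAQ, a further G protein alpha chain, read 224 in SUP-T11, against 1919, 3981 and 5494. LAIR1, an inhibitory receptor for collagen, read 22.9 in SUP-T11, against 371, 819 and 1811. ORAI2, a calcium channel protein, read 38.3 in SUP-T11, against 372, 1475 and 3192. Of its 5 other probe sets 4 were lowest in SUP-T11, but only 2 by a gap of 1 or more. Among these 4, 1 read 225 in SUP-T11 with a gap of 0.85. LST1, a leukocyte protein, read 23.9 in SUP-T11, against 278, 897 and 2444, and all 5 other LST1 probe sets, which carry the suffix for probes that may bind other transcripts, had gaps over 2. By the rule that picked them, SUP-T11 lay beyond the other 15 lines in the main probe set of all of these.

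SEC24C, PARD3, GAS7 and ZMIZ1 were also among these 30. SEC24C, a coat protein of vesicles leaving the endoplasmic reticulum, read 9.30 in SUP-T11, against 524, 861 and 1233. PARD3, a polarity protein, read 1.89 in SUP-T11, against 271, 717 and 1372. GAS7 read 7.56 in SUP-T11, against 453, 1119 and 2397, and ZMIZ1, a transcriptional coactivator that works with NOTCH1, read 9.04, against 723, 1734 and 4063. ARHGAP21, LRP12, MFHAS1, ARAP2, SVIL and RCN1 were the other low genes among the first 30. The 23 low genes beyond these had gaps of 2 to 2.82. In them SUP-T11 read between 3.74 and 503, with a median of 28.1, and the lowest other line read between 74.9 and 3307.

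Around the threshold the values were close. Just inside it on the high side were ABCA7 with a gap of 2.15, OR3A1 with 2.07 and CPA5 with 2.06, and just outside it were PEG10, ATAD3C and TLE2, each at 2 after rounding. On the low side BAHCC1 with 2.02, SEMA7A with 2.01 and ETS2 with 2 lay just inside, and TSPAN14 with 1.94, PARP14 with 1.92 and CHST11 with 1.87 just outside. OR3A1 read 109 in SUP-T11 and at most 13.9 elsewhere.

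Second probe sets, read on the same arrays, gave a check by values that the rule did not use. Of the 61 high genes 32 had another probe set, and in 26 of these at least 1 showed a gap of 1 or more, in 19 a gap of 2 or more. In 3 SUP-T11 was outermost by less than 1, and in ACTG2, DLX2 and CATSPERB it was outermost in none. Of the 53 low genes 39 had another probe set, with 29 at a gap of 1 or more and 21 at 2 or more. In 4 SUP-T11 was outermost by less than 1, and in 6 it was outermost in none, namely ZMIZ1, ARAP2, NOTCH1, BEND5, RHOC and SEMA7A. The second probe sets of these last genes read low in every line. For ACTG2 the second probe set read 14.7 in SUP-T11 and between 5.59 and 35.6 elsewhere. For DLX2, a homeobox gene of the forebrain, it read 15.5 in SUP-T11 and at most 18.7 elsewhere, against 1062 and at most 154.3 by the first probe set. The remaining 29 high and 14 low genes had no second probe set. Of the genes set apart, 2 high and 6 low rest on a probe set with the suffix for probes that may bind other transcripts.

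**Figure D3:**
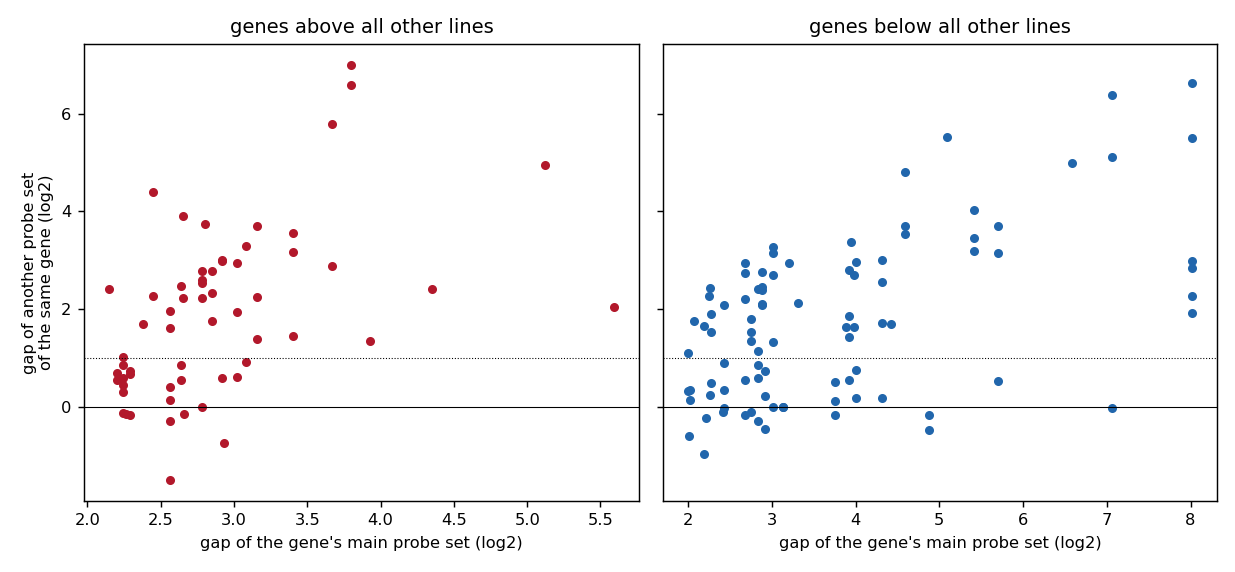
Each point is another probe set of a gene set apart, for high genes at the left and low genes at the right. The horizontal axis is the gap (log2) of the probe set that stands for the gene, and the vertical axis the gap of the other probe set in the same direction, negative where SUP-T11 was not outermost. The solid line is 0 and the dotted line 1, and most points lie above 0, up to 7 for PTGDS and 6.62 for CDK6.

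Among genes of mature T cells the differences had both signs. Of 23 genes of mature T cells 6 were highest in SUP-T11, 26.1% against 9.53% of all genes, with a median difference of 0.41. CD27 and IL2RA were lowest, 8.7% of the list against 11.5% of all genes. The mean of log2(intensity + 16) over the list was 9.57 in SUP-T11, inside the 7.47 to 10.02 of the other lines. CD52 read 10816 in SUP-T11, against 87.0, 475 and 8030.4. CCR7, which guides naive T cells to lymph nodes, read 3386 in SUP-T11, against 13.3, 189 and 1082. CD28, the costimulatory receptor, read 1743 in SUP-T11, against 7.16, 197 and 1287. Their levels in the other lines ran over a wide range that SUP-T11 exceeded. CD5 read 2421 in SUP-T11, against 9.5, 471 and 1082. CD6 read 4458 in SUP-T11, against 58.5, 1025 and 2797. In these 5 genes SUP-T11 lay above the highest other line by less than 2 units. CTLA4 was the sixth, with 63.5 in SUP-T11 against at most 52.6 elsewhere, levels near the table median that cannot be ordered. The lowest ranks of CD27 and IL2RA also rest on such levels. CD27, a costimulatory receptor of naive T cells, read 52.3 in SUP-T11, against 54.5, 84.6 and 194. IL7R, the interleukin-7 receptor chain, differed by -1.96 and CD8B by -1.97. CD8A was low, with 12.1 in SUP-T11 against 8.16, 188 and 3841, and CD4 read 30.6 in SUP-T11 against 23.8, 47.5 and 244.

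Of 19 genes of cortical and immature thymocytes 0 were highest in SUP-T11 and 11 lay at least 1 unit below the median of the other lines, 57.9% against 6.8% of all genes, and the median difference was -1.97. CD1B, a cortical marker, read 3.27 in SUP-T11, against 1.54, 920.0 and 9328. CD1A read 14.6 in SUP-T11, against 11.9, 904 and 4276. RAG1, part of the recombinase, read 7.19 in SUP-T11, against 6.96, 256 and 3415. LMO2, an adaptor of early progenitors, was lowest in SUP-T11 with 8.68, against 12.97, 561 and 6805, though the next line also lay under the table median. CD99 was lowest with 2152, against 2514, 8489 and 13908. For CD1B, CD1A and RAG1 at least 1 other line lay lower still. CD44, lost and regained during thymocyte development, read 6974 in SUP-T11 against 10.2, 1274 and 8144. It was the only gene of the list at least 1 unit above the median of the other lines.

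GIMAP genes, GTPases of lymphocytes that lie together on chromosome 7, had a median difference of -2.39 over 7 genes, 4 of them at least 1 unit low, 57.1% against 6.8% of all genes. GIMAP6 read 18.7 in SUP-T11, against 16.9, 2224 and 6769. GIMAP2 read 50.5 in SUP-T11, against 39.0, 2378 and 3616. GIMAP1 was lowest with 15.5, against 28.4, 839 and 5823, though the next line also lay under the table median. GIMAP5 was highest with 58.9 against at most 58.4, all near the table median.

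Markers of other cell types were compared by their mean level. None was set apart in the B cell, myeloid, erythroid, epithelial and stromal lists, which says little, since only 0.308% of all genes were set apart high and 0.268% low. The mean of log2(intensity + 16) over 9 B cell genes was 6.02 in SUP-T11 and between 5.45 and 7.67 in the other lines. Over 11 myeloid genes it was 5.02 in SUP-T11, against 4.84 to 5.89. Over 8 erythroid and megakaryocyte genes it was 5.565 in SUP-T11, against 5.56 to 6.71. None of these means lay above the other lines. Over 11 epithelial genes it was 5.41 in SUP-T11, against 5.34 to 6.02. Over 12 stromal and endothelial genes it was 5.29 in SUP-T11, below the 5.47 to 5.97 of the other lines. The B cell genes MS4A1 and PAX5 read 27.0 and 25.05 in SUP-T11 and at most 43.2 and 49.1 elsewhere.

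**Figure D4:**
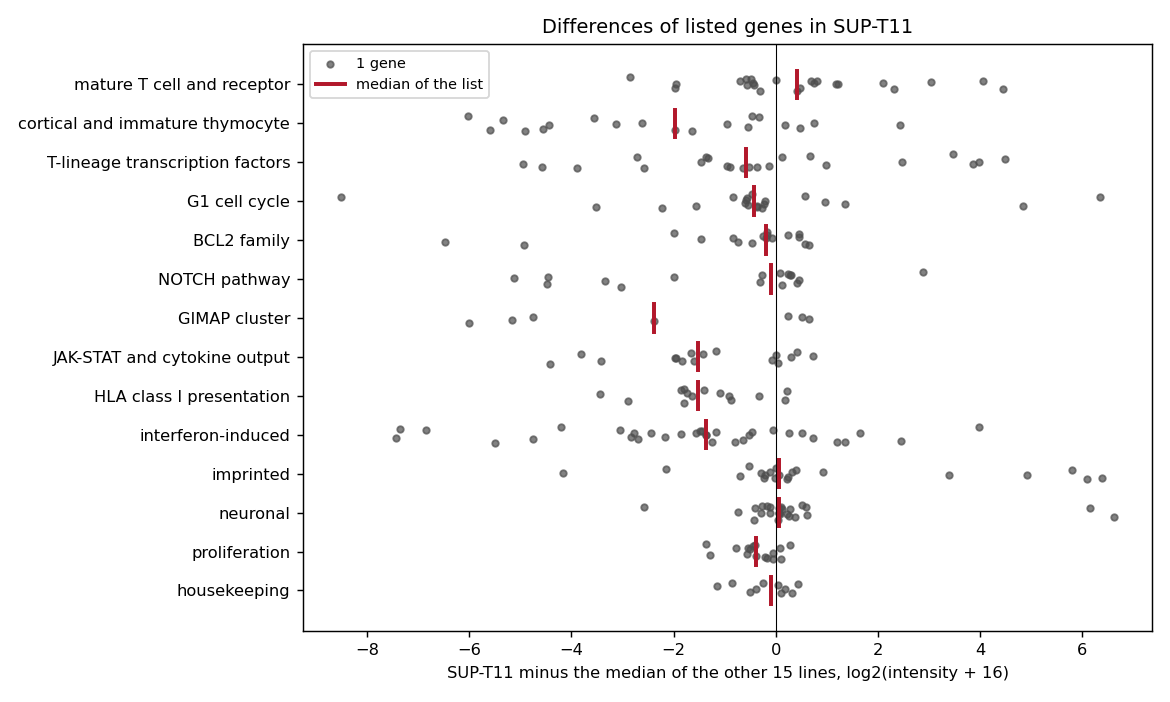
Each grey point is 1 gene of a list, placed at SUP-T11 minus the median of the other 15 lines in log2(intensity + 16), and the red bar is the list's median. The cortical and immature (-1.97), GIMAP (-2.39), JAK-STAT (-1.51) and HLA class I (-1.52) lists lie to the left, while the imprinted and neuronal lists have medians of 0.07 with a few genes far to the right.

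Stretches of neighbouring expressed genes along chromosomes also lay low in SUP-T11. The 8390 expressed genes were ordered by RefSeq position (GRCh38.p14) and divided into 421 blocks of about 20 neighbours, a size and threshold chosen after the data were seen. For each block the median difference was taken, and the same was done for every other line against its own 15 others. In SUP-T11 66 blocks had a median of -0.5 or lower and 11 of 0.5 or higher. The other lines had between 0 and 23 low blocks, with LOUCY at 23, and between 0 and 22 high blocks, with ALL-SIL at 22. The contrast depends on the threshold, since at 0.3 in place of 0.5 SUP-T11 had 87 low blocks and another line 78. The SD of the block medians was 0.36 in SUP-T11, against 0.12 to 0.26 in the other lines.

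**Figure D5:**
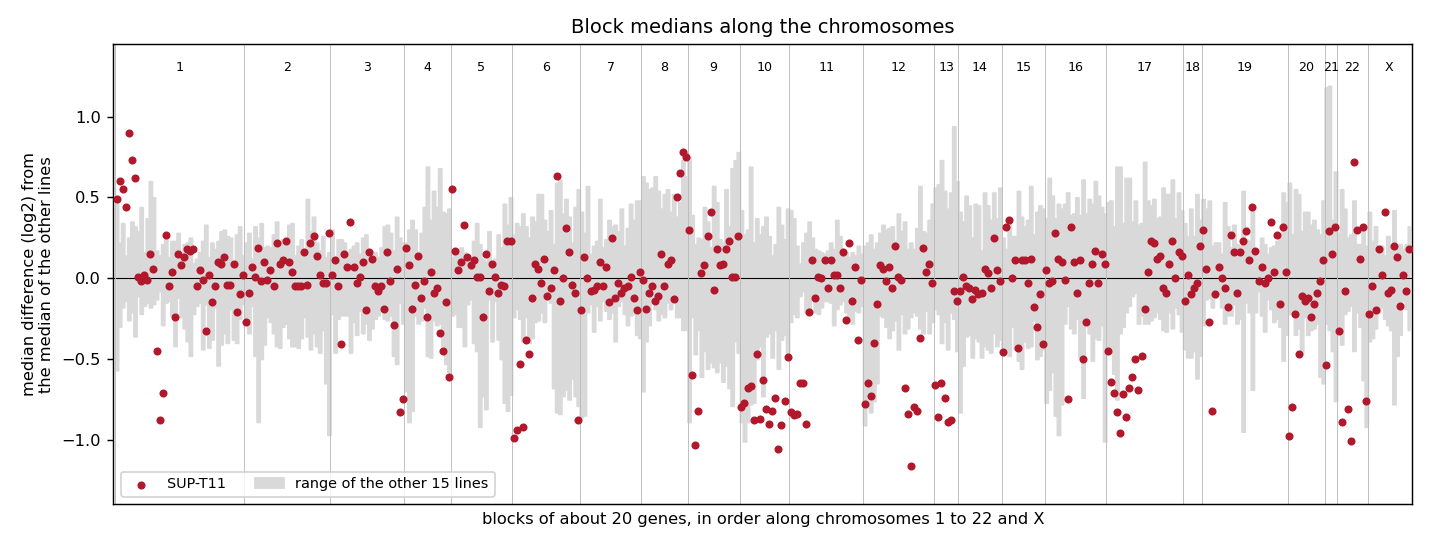
Median difference (log2) of each block of about 20 neighbouring expressed genes, in order along chromosomes 1 to 22 and X. Red points are SUP-T11, and the grey band runs from the lowest to the highest of the other 15 lines. Red points fall below the band along much of chromosomes 10 and 13 and in stretches of 6, 11, 12, 17, 20 and 22, and above it at the start of chromosome 1.

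On chromosome 10 the 327 expressed genes had a median difference of -0.80 in SUP-T11, against -0.53 in P12-ICHIKAWA and 0.26 in TALL-1 at the ends of the other lines. Of them 85.0% lay below the median of the other lines and 50.5% were lowest of 16, against 54.1% and 16.4% of all expressed genes. The low genes ZMIZ1, SEC24C, PARD3, ARHGAP21 and SVIL lie on it. SUP-T11 was below every other line in 10 of its 16 blocks and not in the other 6. Over the first 5 blocks, from ZMYND11 to ADO, which hold PARD3, ARHGAP21 and SVIL, its median was -0.79 and another line reached -0.87, and 32.4% of the genes were lowest in SUP-T11. Chromosome 13 had a median of -0.66 over 163 genes, against -0.31 to 0.58 elsewhere, with its last 2 of 8 blocks near 0 at -0.08 and -0.14. Chromosome 17 had a median of -0.32, and 10 consecutive low blocks from MNT to WIPF2 reached -0.72 over 200 genes, 95% of them below the other lines' median. GAS7 and P2RX5 lie in that stretch.

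At the start of chromosome 11, 6 consecutive blocks from BET1L to APIP had a median of -0.81 over 120 genes, against -0.10 to 0.24 in the other lines. IFITM1, IFITM2, IFITM3, RCN1 and AMPD3 lie in it. The first 3 blocks of chromosome 12, from KDM5A to CREBL2, had a median of -0.71 and hold ETV6, and in another line that stretch reached -0.82. From KRR1 to HECTD4 on the same chromosome 5 blocks had a median of -0.85, against -0.23 to 0.24. The first 4 low blocks of chromosome 6, from DUSP22 to HLA-G, had a median of -0.91, against -0.17 to 0.31, and hold SOX4 and BTN3A2. High stretches were fewer. On chromosome 1 the 60 genes from FBXO42 to SH3BGRL3 had a median of 0.78, against -0.18 to 0.18 in the other lines. On chromosome 8 the 60 genes from NDUFB9 to C8orf33 had a median of 0.76, against -0.22 to 0.59, and hold MTSS1, which is high, but also the low genes SLA and NDRG1.

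Of the 53 low genes 16 lay in low blocks, 30.2% against 15.9% of all expressed genes. The other 37 did not, CDK6, ARID1A, ADA, MYB and BCL2 among them. The block medians were taken from the same SUP-T11 values and include the low genes, so nothing is read from the count or its share. The genes P2RX5, AMPD3, MTSS1, SLA and NDRG1 are named for their place in these stretches, after their values were seen. The part of these stretches in the values of the genes they hold, and of the HLA class I and other genes listed above, was not tested.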

How the data were processed

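The authors deposited 1 table of probe set intensities on a linear scale, 54675 per array. How they summarised, corrected and scaled the probes is not given in the sources used here. No further normalization was applied, and all comparisons used log2(intensity + 16). In the platform annotation 41091 probe sets named 1 gene, of which 41042 matched a RefSeq symbol, and a gene with several took the one whose mean over all arrays was highest. Such a value can miss a change in another transcript, and low intensities hold mostly background. limma was not used, because with 1 SUP-T11 array it would take the spread between different lines for replicate error. A run on simulated data with large added shifts covered only the calculation of the gap, and nothing about SUP-T11 is drawn from it.

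The genes, the 25 lists and the rules were chosen with earlier results of these data known. Genes named are UCHL1 and PEG3, the 30 with the largest gap in each direction, genes set apart within a list, up to 6 genes of a list with the largest differences, genes whose second probe sets went against the first, and those next to the threshold. Other names, and 2 further lists (interferon-induced, SWI/SNF), were chosen after values were seen. Some listed genes were not analysed here. The shares of all genes set beside the lists include 8916 genes that never reached 4 times the table median in any line. Lists of expressed genes are therefore set against an unlike background. Over expressed genes 16.4% were lowest in SUP-T11, and their share at least 1 unit low is not given here. Alternatives covered the pseudocount, the scaling, the choice of probe set, a filter on low values, the gap and leaving out each other line. Computations ran in Python 3.11.15 with pandas 2.3.3 and numpy 2.4.6, and plots were drawn with matplotlib 3.10.9.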

Additional observations from a re-analysis of the deposited data

Results flagged for a closer look

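Of 13522 probe sets that name no single gene, and so stood outside the counts by gene, 28 read at least 2 log2 units higher in SUP-T11 than in every other line and 12 at least 2 units lower. They are given because they are signals in data that the comparison by gene did not use. Of the 28 high ones 6 name several genes and 22 name none. Of the 12 low ones 8 name several genes and 4 name none. A probe set for PALM2AKAP2 and AKAP2, an anchoring protein of protein kinase A, read 11.3 in SUP-T11, against 1590.3, 4072 and 6428 as the lowest, median and highest of the other lines, a gap of 5.88. Another 2 probe sets of the same pair had gaps of 4.94 and 4.26. A probe set shared by IFITM2 and IFITM1 read 19.1 in SUP-T11, against 1601, 7784 and 14969.8. Both probe sets listed with MIR1908 and FADS1, a fatty acid desaturase gene, were low, with gaps of 3.28 and 2.62. Among the high ones, a probe set for SNORA28 and EIF5 read 1886 in SUP-T11, against 38.4, 86.5 and 163. These names were chosen after the values were seen.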

How the results depend on the processing

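With a pseudocount of 1, 96 genes were set apart high, and with 64 the counts were 39 high and 32 low. A gap of 3 left 22 high and 26 low genes, and a gap of 1.5 gave 135 high. Asking for a second probe set with a gap of at least 1 left 26 high and 29 low genes. Of those lost, 29 high and 14 low genes have no second probe set, and 6 high and 10 low genes have one that did not reach it. Without probe sets suffixed _x_at or _s_at 34 low genes remained, 33 of them among the 53. Leaving out each other line in turn gave 61 to 73 high and 53 to 62 low genes, and the most high genes came without LOUCY. By the rule, leaving out a line can only keep or raise these counts. Centring, quantile normalization, the probe set with the highest SD, the mean of all probe sets and a filter on low values kept both counts within 1.5 times. With the mean of all probe sets, however, only 36 low genes remained, all among the 53. Of its 60 high genes 51 were among the 61. SUP-T11 stayed first of the 16 lines in number of genes set apart with a pseudocount of 64, quantile normalization, a gap of 3 (48 against 43 in the next line) and a gap of 1.5. Its Spearman correlation with the median of the others was 0.906, again the lowest. Alternatives for the blocks were chosen after seeing the data. Blocks of about 10 genes gave 146 low blocks of 837 (at most 51 in another line), and blocks of about 40 genes gave 36 of 211 (at most 11). At a threshold of 0.3 SUP-T11 had 87 low blocks, close to the 78 of another line. Chromosome 10 kept a median between -0.83 and -0.70, and below every other line, in its 4 alternatives. None of the 114 genes changed sign with the other pseudocounts, centring or quantile normalization, which says little for genes picked by a gap of 2. A pseudocount keeps the order of the lines, and centring and quantile normalization moved SUP-T11 by a median of -0.044 and -0.003. None changed sign with the 2 other ways of choosing a probe set. Single second probe sets did, as in ACTG2, where one differed by -0.39 against 4.33. No paired analysis was possible because SUP-T11 has 1 array, and replicate numbers were given in accession order, which pairs no samples. Levels near the table median cannot be ordered, so a gap to a line at background is a lower limit of the contrast.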

Other observations

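Some regulators of chromatin and DNA methylation were low in SUP-T11. Of 16 genes 5 were lowest of the 16 lines, 31.2% against 11.5% of all genes and 16.4% of expressed genes. The median difference was -0.35 and none was set apart. UHRF1, which guides maintenance methylation, read 2819 in SUP-T11, against 4606, 7661 and 9669 as the lowest, median and highest of the other 15 lines. JARID2, a partner of polycomb repressive complex, read 380.3 in SUP-T11, against 876, 1833 and 3982. TET1, which oxidises methylcytosine, read 155 in SUP-T11, against 165, 358 and 1099. The methyltransferase EZH1 was highest with 885, against 340.4, 497 and 818. How these levels relate to the imprinted genes was not tested.

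In the PI3K pathway PIK3CD, the catalytic chain of leukocytes, was highest in SUP-T11 with 9263, against 373, 1047 and 5373. PHLPP1, a phosphatase acting on AKT, was lowest with 24.5, against 34.5, 433 and 3578, though the next line also lay under the table median. The list of 12 genes had a median difference of 0.00. Of the p53 response genes, SESN2 was highest with 999.6, against 121, 223 and 894, and FAS, a death receptor, read 49.8 in SUP-T11, against 17.7, 527 and 1405. That list of 14 genes had a median difference of -0.09. Of 13 oncogenic transcription factor genes of T-ALL, 8 never reached 4 times the table median in any line. TAL1 read 18.6 in SUP-T11, against 14.7, 425 and 3586, and MYC read 4335 in SUP-T11, against 23.6, 5521 and 9553. The 20 cancer-testis genes had a median difference of -0.06, and PRAME read 250.6 in SUP-T11, second to JURKAT with 1177.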
